A study of Saccharomyces cerevisiae with 16 samples.

Results

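The comparison described here is that of control cells after 60 minutes in 200 mM CaCl2 with the same cells before CaCl2 was added. Its members are the 4 RNA-seq libraries of the ET (control) arm at 60 and 0 minutes, of 16 libraries in all, and every gene of the count table was examined in them. The cells were *Saccharomyces cerevisiae* YJB622, a haploid MATa strain in the BY4741 background that carries the auxotrophic markers ura3Δ0, leu2Δ0, his3Δ0 and met15Δ0 together with crz1Δ::KanMx, hog1Δ::LEU2 and Hcm1-3HA-HIS3. All groups therefore lack Crz1, a transcription factor (TF) that calcineurin (CN), a phosphatase that responds to calcium, dephosphorylates and turns on, and Hog1, the MAP kinase of the osmotic stress response, and carry a tagged Hcm1. Cultures were pre-treated with ET buffer for 15 minutes and then received CaCl2. The 2 replicates are separate time courses, each sampled at 0, 10, 30 and 60 minutes, and the other arm, pre-treated with 1 μg/ml FK506, an inhibitor of CN, was sampled at the same times. A single strain was measured, and no library from cells that carry *CRZ1* or *HOG1* was compared here.

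Yeast cells that meet a stress reorganize their transcription as a whole. Genes for protective proteins, reserve carbohydrates and respiration are induced, largely through the TFs Msn2 and Msn4, which bind a short element rich in G, whereas genes for ribosomes, their assembly and translation are repressed. In most stresses this response is transient, and expression returns towards its starting point as cells adapt. In unstressed cells, genes for ribosome production are kept high by nutrient signalling through protein kinase A and TORC1. Levels are given below as CPM, read counts scaled to a common library total. Changes are log2 values from limma voom with TMM scaling, which scales the libraries by a trimmed mean of log ratios over genes, and a gene was called higher or lower at a Benjamini-Hochberg adjusted p under 0.05 over 6206 genes.

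Upstream sequences of 6 genes are shown first. Of these, 5 are among the genes that moved furthest and hold motifs that recur in such genes, and *PRM1* is shown for the genes of the pheromone response. Each window covers 300 bases that begin 400 bases before the annotated gene start in build R64, printed 5′ to 3′ on the strand of the gene. Capitals mark AGGGG, the stress response element, in *HSP12* (chrVI:106856-107155, plus strand) and *PGM2* (chrXIII:477707-478006, minus strand). They mark TGAAACA, the pheromone response element, in *PRM1* (chrXIV:110517-110816, plus strand). In *NSR1* (chrVII:807757-808056, minus strand), *NOP7* (chrVII:695017-695316, plus strand) and *URA7* (chrII:145829-146128, minus strand) they mark PAC (GATGAG) and RRPE (the longer element of 10 bases), both common upstream of ribosome assembly genes. Each motif is marked on either strand, so that AGGGG also appears as CCCCT.
HSP12: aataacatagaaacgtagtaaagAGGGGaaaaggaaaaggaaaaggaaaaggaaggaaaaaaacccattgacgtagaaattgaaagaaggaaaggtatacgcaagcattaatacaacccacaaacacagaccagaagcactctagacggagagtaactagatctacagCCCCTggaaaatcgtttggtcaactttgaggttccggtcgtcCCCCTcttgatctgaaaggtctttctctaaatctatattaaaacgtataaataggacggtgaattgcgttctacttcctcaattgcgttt
PGM2: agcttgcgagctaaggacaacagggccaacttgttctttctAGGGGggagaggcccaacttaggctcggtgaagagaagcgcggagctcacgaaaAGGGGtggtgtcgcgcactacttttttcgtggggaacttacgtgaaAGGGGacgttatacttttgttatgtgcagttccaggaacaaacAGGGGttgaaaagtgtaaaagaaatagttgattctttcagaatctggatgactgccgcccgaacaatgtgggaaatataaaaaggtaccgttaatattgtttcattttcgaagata
PRM1: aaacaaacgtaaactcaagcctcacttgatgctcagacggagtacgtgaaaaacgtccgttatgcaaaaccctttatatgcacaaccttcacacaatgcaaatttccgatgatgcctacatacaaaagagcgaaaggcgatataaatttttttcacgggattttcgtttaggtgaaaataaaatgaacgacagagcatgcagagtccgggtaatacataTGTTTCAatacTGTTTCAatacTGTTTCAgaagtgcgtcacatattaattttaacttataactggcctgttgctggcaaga
NSR1: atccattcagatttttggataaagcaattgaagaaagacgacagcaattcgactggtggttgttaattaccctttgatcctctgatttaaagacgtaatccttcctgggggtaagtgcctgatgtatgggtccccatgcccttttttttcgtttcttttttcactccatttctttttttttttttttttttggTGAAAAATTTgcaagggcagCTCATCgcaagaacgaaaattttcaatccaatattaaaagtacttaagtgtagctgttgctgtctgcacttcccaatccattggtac
NOP7: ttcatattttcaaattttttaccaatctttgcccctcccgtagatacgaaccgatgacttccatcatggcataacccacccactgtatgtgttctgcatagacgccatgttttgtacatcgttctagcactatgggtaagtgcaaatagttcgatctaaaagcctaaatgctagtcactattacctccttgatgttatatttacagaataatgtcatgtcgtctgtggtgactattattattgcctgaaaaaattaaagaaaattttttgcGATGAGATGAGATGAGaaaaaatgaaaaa
URA7: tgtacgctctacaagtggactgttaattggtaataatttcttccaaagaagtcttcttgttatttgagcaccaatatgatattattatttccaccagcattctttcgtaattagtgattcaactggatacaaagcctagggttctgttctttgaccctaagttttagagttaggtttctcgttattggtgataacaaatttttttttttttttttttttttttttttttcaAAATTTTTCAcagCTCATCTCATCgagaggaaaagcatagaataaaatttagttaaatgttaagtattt
The *HSP12* window holds 3 stress response elements and that of *PGM2* holds 4. The *PRM1* window holds 3 pheromone response elements. *NSR1* has 1 PAC and 1 RRPE match, *URA7* has 2 and 1, and *NOP7* has 3 PAC matches and 0 RRPE matches. The *NOP7* window ends in the first letters of RRPE, and a match that crosses the edge of a window would not be counted. The PAC matches of *URA7* and of *NOP7* share bases and appear as a single run of capitals in each. The windows of *HSP12* and *NOP7* overlap another annotated feature, *YFL015C* and *GTF1*, respectively.

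Replicates resembled each other closely beside the change between time points. The median absolute log2 difference between the replicates was 0.10 at 0 minutes and 0.11 at 60 minutes, and the median absolute log2 change from 0 to 60 minutes was 0.46. Total counts of the 16 libraries lay between 11221758 and 11970166, so that a count of 0 allows at most 0.267 CPM, a limit that covers counting error only. *HOG1*, *CRZ1*, *URA3* and *MET17* (formerly MET15), each deleted in the strain, had 0 counts in the 4 libraries. Genes specific to MATa cells lay between 62.2 and 1546 CPM, and all 4 genes specific to MATα cells were detected at low level, between 2.65 and 76.1 CPM. The summed level of the latter was 101.5 and 100.3 CPM at 0 minutes and 136 and 130.4 CPM at 60 minutes, against 2908 and 2950 CPM and then 4795 and 4857 CPM for the MATa genes. Of the 4 MATα genes 1 was higher and 2 were lower (median -0.43), and with raw library totals 2 were higher and 2 lower. The higher gene, *STE3*, rose by 1.18 (SE 0.11, limma adjusted p 5.2e-08), and the lowest change was -1.35. The source of the MATα reads was not tested. The RNA of the signal recognition particle, *SCR1*, took 4.89% and 4.65% of the counts at 0 minutes and 8.67% and 7.47% at 60 minutes. When raw library totals replaced TMM, the median log2 change of all genes was 0.25 and not 0.01.

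Expression of 4241 of 6206 genes differed between 60 and 0 minutes, or 68.3% of those tested. Of these, 2086 genes (33.6%) were higher and 2155 (34.7%) were lower, and with raw library totals the numbers were 2973 and 1535. The share of calls that were higher thus moved from 49.2% to 66.0%, and small changes in either direction depend on the scaling. Changes of at least 1 on the log2 scale were seen for 1451 genes (23.4%), 625 of them higher (10.1%) and 826 lower (13.3%). Each of these 1451 genes moved in the same direction in both time courses, as did 4237 of all 4241 called genes. The calls were made from these same time courses, so this agreement largely follows from the call and is not separate support. The 2 libraries at 60 minutes did not overlap those at 0 minutes in CPM for 5292 genes, or 85.3% of those tested. CPM follow raw library totals, with which the median log2 change of all genes was 0.25, so this share depends on the scaling. Permuting 2 samples against 2 allows no exact two-sided p below 1 in 3, so calls rest on the spread that the 16 libraries share.

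The genes with the highest change included those of small heat shock proteins and of enzymes of carbohydrate metabolism. *HSP12*, which encodes a small membrane-associated heat shock protein, was at 11.2 and 10.9 CPM in the 0 minute libraries and at 2071 and 1650 CPM in those at 60 minutes. It rose by 7.15 on the log2 scale (SE 0.28, limma adjusted p 2.3e-13). *HSP26*, a small heat shock chaperone, went from 22.5 and 24.6 CPM to 1196 and 1113 CPM, 5.38 on the log2 scale (SE 0.15, limma adjusted p 2.1e-15). In both genes, which were chosen for their change, the groups were far apart, and the replicates at 60 minutes differed much less than the groups. *DDR2* (4.66), *NQM1* (4.48), *RTC3* (4.05), *PGM2* (3.98), *GND2* (3.83), *FMP16* (3.83), *GPG1* (3.71), *TDH1* (3.67), *AMS1* (3.55) and *MSC1* (3.51) followed on the log2 scale. *NQM1* and *GND2* encode stress-induced isoforms of pentose phosphate enzymes, *PGM2* the main phosphoglucomutase, *TDH1* an isoform of glyceraldehyde-3-phosphate dehydrogenase and *AMS1* a vacuolar mannosidase. *AMS1* stood at 34.4 and 38.7 CPM before CaCl2 and at 516 and 490 CPM after 60 minutes.

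The lowest changes belonged mostly to ribosomal protein genes and to factors that assemble ribosomes in the nucleolus. *RPS26B*, which encodes a protein of the small ribosomal subunit, fell from 591 and 564 CPM to 31.5 and 34.5 CPM, with -4.37 on the log2 scale (SE 0.10, limma adjusted p 1.8e-16). *URA7*, the gene for the major CTP synthase, was at 436 and 377 CPM at 0 minutes and 24.0 and 24.4 CPM at 60 minutes, -4.31 on the log2 scale (SE 0.18, limma adjusted p 8.9e-13). *NSR1*, the yeast nucleolin, went from 192 and 167 CPM to 9.32 and 12.4 CPM, -4.30 on the log2 scale (SE 0.21, limma adjusted p 4.9e-12). The groups of these 3 genes did not overlap, and each 60 minute library lay more than 10-fold below each 0 minute library. The 3 genes were chosen for their change, and 85.3% of all genes tested did not overlap either. *NOP7* (-4.23), *FPR4* (-4.07), *NOP13* (-4.06), *RPS17B* (-4.06), *BRX1* (-3.94), *RPA43* (-3.91), *RPS22A* (-3.91), *RPL9A* (-3.90) and *NOP58* (-3.85) made up the 12 lowest genes. *NOP7* and *BRX1* act in assembly of the large subunit, *RPA43* encodes a subunit of RNA polymerase I, and *NOP58* a core protein of box C/D small nucleolar ribonucleoproteins (snoRNPs).

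**Figure D1:**
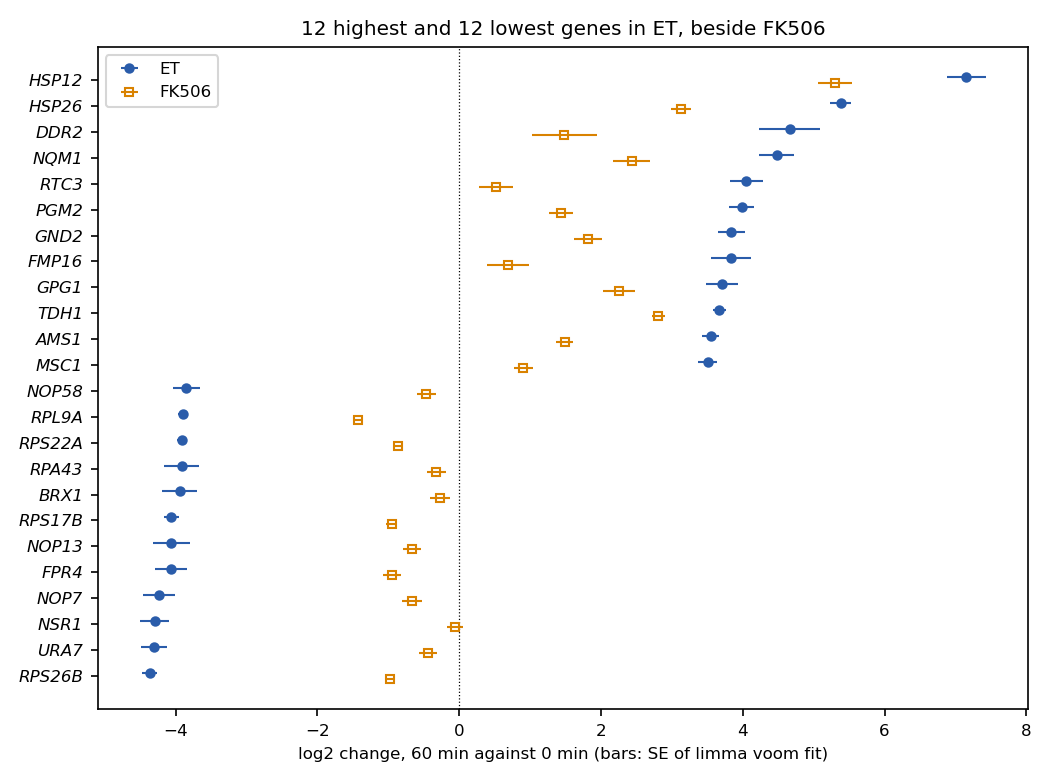
Log2 change from 0 to 60 minutes of the 12 highest and 12 lowest genes in ET (filled circles), with the change of the same genes in FK506 (open squares); bars are standard errors of the limma voom fit with 2 libraries per group. *HSP12* stands furthest to the right at 7.15, and the 12 lowest genes lie between -3.85 and -4.37 in ET but nearer 0 in FK506.

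Genes were next grouped by function, and the groups are described by the number of members called beside the 33.6% of all genes that were higher and the 34.7% that were lower. Of 39 general stress genes tested, 35 were higher and 1, *YRO2*, was lower, with a median log2 change of 2.38 against 0.01 over all genes. Together the 40 listed genes took 0.168% and 0.170% of the counts at 0 minutes and 1.08% and 0.937% at 60 minutes. All 10 genes of trehalose synthesis and breakdown were higher (median 1.85). Trehalose is a sugar that protects proteins and membranes. *TSL1*, a regulatory subunit of the synthase complex, went from 197 and 291 CPM to 1905 and 1637 CPM, and *TPS1*, the synthase itself, from 317 and 323 CPM to 1554 and 1432 CPM. *NTH1*, which breaks trehalose down, rose by 1.99 along with the synthetic genes. Of 11 glycogen genes 8 were higher and 0 were lower, and the highest changes were those of *GDB1* (2.90) and *GPH1* (2.52), both of which act in glycogen breakdown, followed by the branching enzyme gene *GLC3* (2.32).

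**Figure D2:**
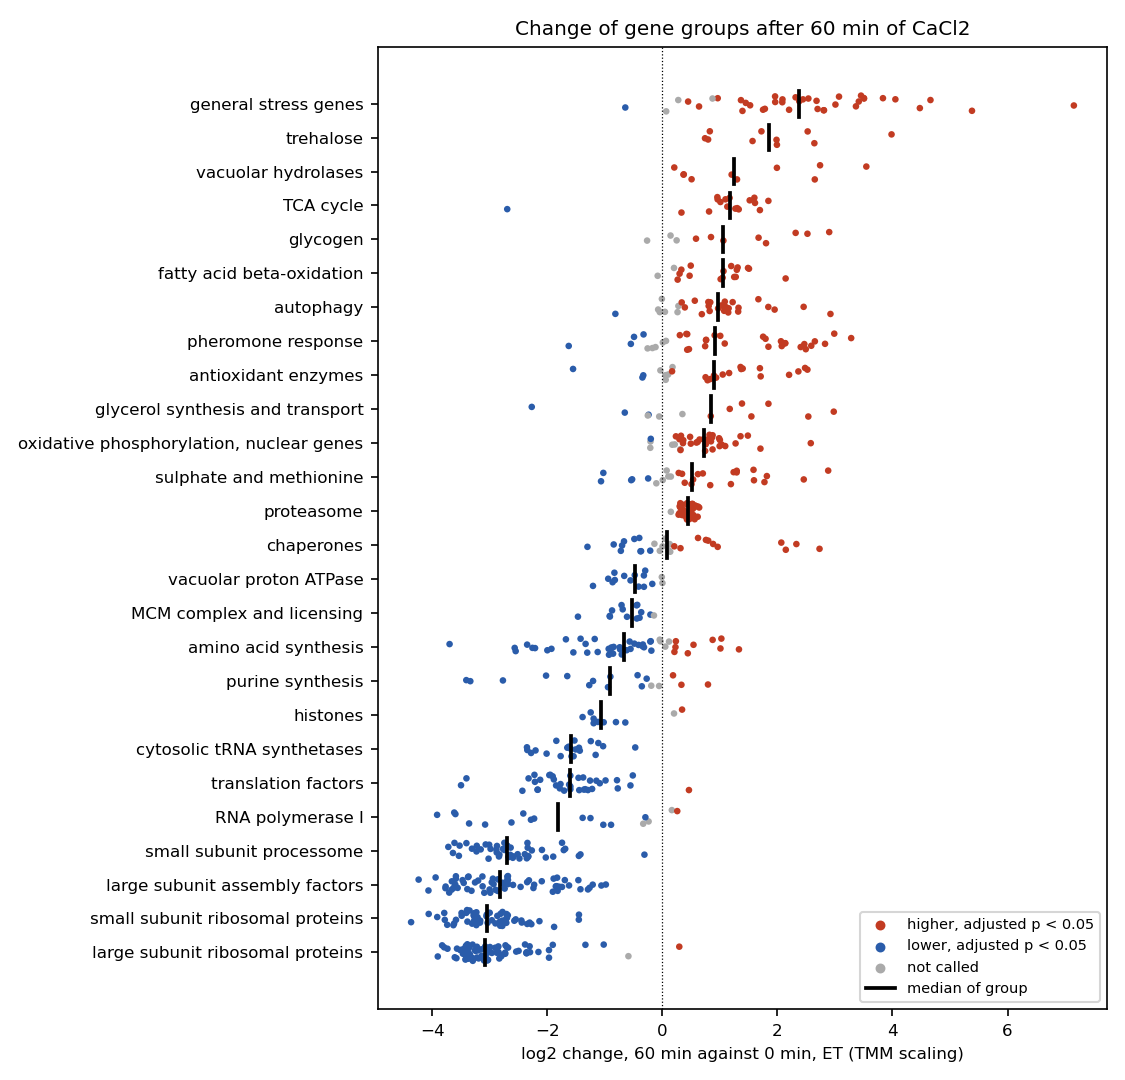
Log2 change from 0 to 60 minutes in ET for the members of 26 gene groups, 1 point per gene, with red for genes called higher, blue for genes called lower and grey for genes not called; black bars are group medians. General stress genes have a median of 2.38 and ribosomal protein genes of the large subunit a median of -3.07.

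Mitochondrial and catabolic genes were mostly higher. In the TCA cycle 16 of 17 genes were higher and 1 was lower, with a median of 1.17, and *IDH2*, a subunit of NAD-dependent isocitrate dehydrogenase, rose from 94.2 and 104 CPM to 435 and 401 CPM. Of 36 nuclear genes of oxidative phosphorylation 30 were higher (median 0.73), led by *CYC7*, the minor isoform of cytochrome c, at 2.58 from a low level of 2.005 and 3.25 CPM. The 1 lower member, *NDE1* (-0.20), was not lower with raw library totals (0.04). Of 18 genes of fatty acid beta-oxidation 16 were higher and 0 were lower, and the thiolase gene *POT1* had the highest change, 2.14. In the glyoxylate cycle and gluconeogenesis 12 of 15 genes were higher, with smaller changes (median 0.70). Of 7 genes of the mitochondrial genome tested 5 were higher, by 0.65 or less. These libraries hold total RNA after removal of ribosomal RNA, so that mitochondrial transcripts do not depend on a poly(A) tail to be counted.

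Protein turnover genes were higher in a graded manner. Each of the 10 vacuolar hydrolase genes was higher (median 1.25). *PRB1*, the vacuolar proteinase B, rose from 148 and 166 CPM to 1126 and 1190 CPM. Of 31 autophagy genes tested 24 were higher and 1 was lower, and *ATG39*, a receptor for autophagy of the nucleus, and *ATG8*, the ubiquitin-like protein of the autophagosome, had log2 changes of 2.92 and 2.46. *ATG8* was at 8.60 and 10.4 CPM before and 63.7 and 59.1 CPM after. Proteasome genes moved in a narrow band, with 33 of 34 higher, a median of 0.45 and a highest change of 0.64 for *RPT1*. By contrast, 13 of 15 genes of the vacuolar proton ATPase were lower and 0 were higher (median -0.48), led by *VMA3* at -1.20, although with raw library totals 9 were lower and 2 higher.

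Chaperone genes were divided. Of 28 tested, 11 were higher and 10 were lower, near the shares of all genes, with a median of 0.08, and with raw library totals the numbers were 17 and 7. *SSA4*, the stress-induced Hsp70, rose from 110.0 and 133 CPM to 914 and 986 CPM, 2.73 on the log2 scale (SE 0.10, limma adjusted p 1.2e-13). *SSE2* (2.33), *HSP31* (2.15) and *HSP42* (2.07) were also higher. *YDJ1*, a major cytosolic Hsp40, fell from 643 and 733 CPM to 309 and 348 CPM, and *HSC82*, the constitutive Hsp90, had a log2 change of -0.70. *SSA2* was lower by -0.84, but it has a near-identical copy and its counts are uncertain. Expression of *BTN2*, which sorts misfolded proteins, was 2.02 above 0 minutes at 10 minutes on the log2 scale and -0.40 at 60 minutes (limma adjusted p 0.0012).

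Antioxidant genes included 17 higher and 3 lower of 25. *CTT1*, the cytosolic catalase, went from 14.7 and 13.9 CPM to 84.6 and 70.7 CPM. *GTT1*, a glutathione transferase, had the highest change, 2.52, and *GPX2*, a glutathione peroxidase, the lowest, -1.55. In glycerol metabolism 7 of 13 genes were higher and 3 were lower. *GPD1*, the glycerol-3-phosphate dehydrogenase of the osmotic response and a known target of Hog1, rose in these *hog1Δ* cells from 184 and 212 CPM to 843 and 827 CPM, 1.84 on the log2 scale (SE 0.09, limma adjusted p 5.3e-12). *STL1*, a glycerol importer, was at 11.6 and 13.2 CPM at 0 minutes and 17.9 and 19.3 CPM at 60 minutes, a log2 change of 0.35 that did not pass (limma adjusted p 0.068) and that passed in edgeR and with raw library totals (0.59). Of 20 genes for hexose transporters and glucose sensors 8 were higher and 8 lower, near the shares of all genes, and with raw library totals 11 were higher and 3 lower. *HXT2*, a high-affinity transporter, fell from 234 and 214 CPM to 27.04 and 33.6 CPM, while *HXT5*, which is expressed in slowly growing cells, rose from 8.27 and 9.51 CPM to 41.1 and 33.2 CPM.

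Some paralogs for 1 enzyme within these groups moved apart. Among 15 pairs, picked after their values were seen, 10 had 1 member called higher and the other called lower, and 9 with raw library totals. *GPP2* rose from 44.1 and 44.7 CPM to 433 and 392 CPM, whereas *GPP1*, which encodes the same glycerol-3-phosphate phosphatase activity, fell from 728 and 693 CPM to 166 and 181 CPM. The more abundant member at 0 minutes was thus the less abundant one at 60 minutes. The pairs *GND2* and *GND1* (3.83 and -0.90), *SOL4* and *SOL3* (1.96 and -0.92), *HXK1* and *HXK2* (2.33 and -0.71), *SSE2* and *SSE1* (2.33 and -0.67), and *CAM1* and *TEF4* (0.46 and -2.43) also moved in opposite directions. In 14 of the 15 pairs the member with the lower change was the more abundant one before CaCl2. The level at 0 minutes also enters the change, so this count is partly set in advance. Of all tested protein-coding genes above 1000 CPM at 0 minutes 80.7% were lower, against 6.39% of those under 10 CPM. Genes with few counts can hardly be called lower, and ribosomal protein genes were not set apart, so these shares are not separate support. Other paralog pairs were not counted. The pairs were not chosen by a rule, and 2 of them include a member with near-identical sequence and are uncertain.

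**Figure D3:**
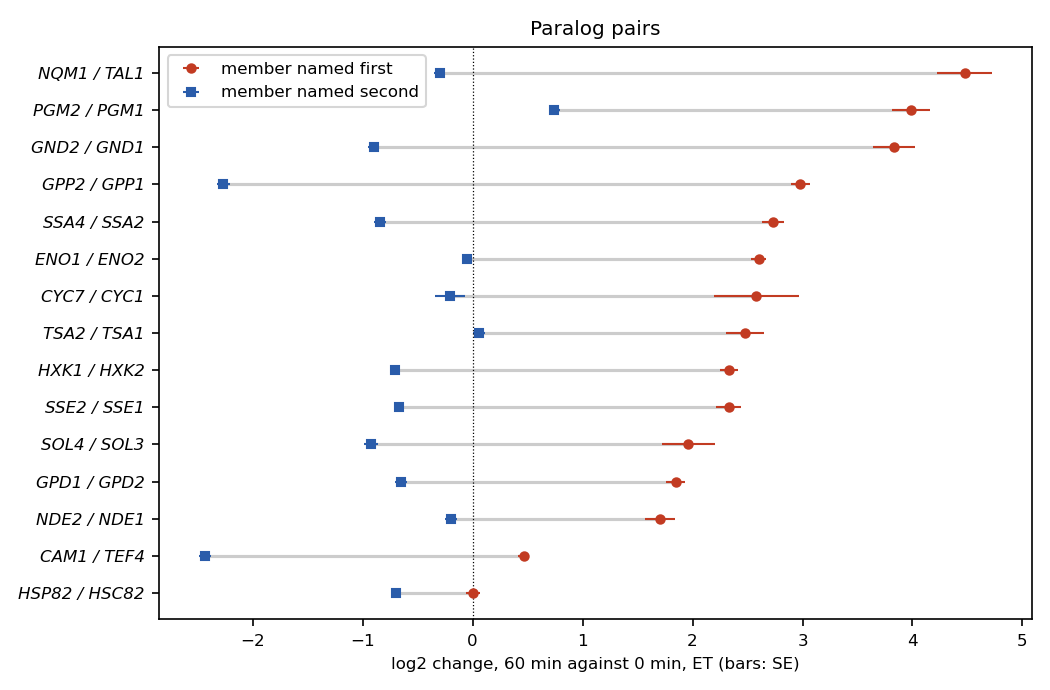
Log2 change from 0 to 60 minutes in ET of 15 paralog pairs, red for the member named first and blue for the member named second; bars are standard errors of the fit with 2 libraries per group and grey lines join a pair. *GPP2* and *GPP1* stand at 2.98 and -2.27.

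Ribosome production formed the largest block of lower genes. All 56 genes for small subunit ribosomal proteins were lower (median -3.04), as were 76 of 78 tested for the large subunit (median -3.07), of which 6 and 15, respectively, share much sequence with a copy and are uncertain. Together the 138 listed ribosomal protein genes took 12.7% and 12.4% of the counts at 0 minutes and 1.74% and 1.79% at 60 minutes. *RPL9A* fell from 1197 and 1165 CPM to 98.9 and 87.2 CPM, and its paralog *RPL9B* had a smaller log2 change of -2.31. *RPL15B* was the 1 member called higher, at 0.30. Genes for mitochondrial ribosomal proteins gave 15 higher and 17 lower of 71 and a median of -0.04, and with raw library totals 32 higher and 3 lower and a median of 0.19.

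Assembly factors were as uniformly lower. All 47 genes of the small subunit processome (median -2.69), all 66 large subunit assembly factors (median -2.82) and 16 of 18 snoRNP proteins (median -1.94) were lower, and 0 genes in these groups were higher. *RRP5*, which acts in both subunits, fell from 945 and 934 CPM to 74.7 and 94.2 CPM. Of 18 genes of RNA polymerase I and its factors 14 were lower (median -1.81), and *RPA43* fell from 110.1 and 93.4 CPM to 6.53 and 9.59 CPM. Of 20 genes of RNA polymerase III 12 were lower and 2 were higher, 1 of them *MAF1*, the repressor of that polymerase, at 0.37. Of 7 genes of RNA polymerase II 4 were lower, with a median of -0.37. Translation followed, with 36 of 37 translation factor genes and all 21 genes of cytosolic tRNA synthetases lower. *YEF3*, elongation factor 3, was among the most abundant transcripts at 15377 and 15150 CPM and stood at 1531 and 1652 CPM after 60 minutes. Among the TFs that act on these genes, *STB3*, a repressor that binds RRPE, rose from 57.0 and 62.2 CPM to 333 and 313 CPM. *TOD6*, a repressor that binds PAC, fell from 27.5 and 25.5 CPM to 3.14 and 3.85 CPM.

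Ribosomal protein genes and assembly factors differed in timing. Assembly factors reached their low point early, with median log2 changes from 0 minutes of -1.46 at 10 minutes, -3.26 at 30 minutes and -2.82 at 60 minutes for the large subunit factors. Large subunit ribosomal protein genes gave -0.41, -1.80 and -3.07 at the same times, where the 3 comparisons share the 0 minute libraries. In the direct test of 60 against 30 minutes, in which 9.76% of all genes were higher and 10.7% lower, 65 of 78 large subunit and 53 of 56 small subunit ribosomal protein genes were lower still. Of 66 large subunit assembly factors 1 was lower and 5 were higher. All 21 tRNA synthetase genes had fallen by 60 minutes, and 20 of them were lower at 60 than at 30 minutes. Of 39 general stress genes 15 were lower at 60 than at 30 minutes and 3 were higher, while remaining above 0 minutes as described above.

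**Figure D4:**
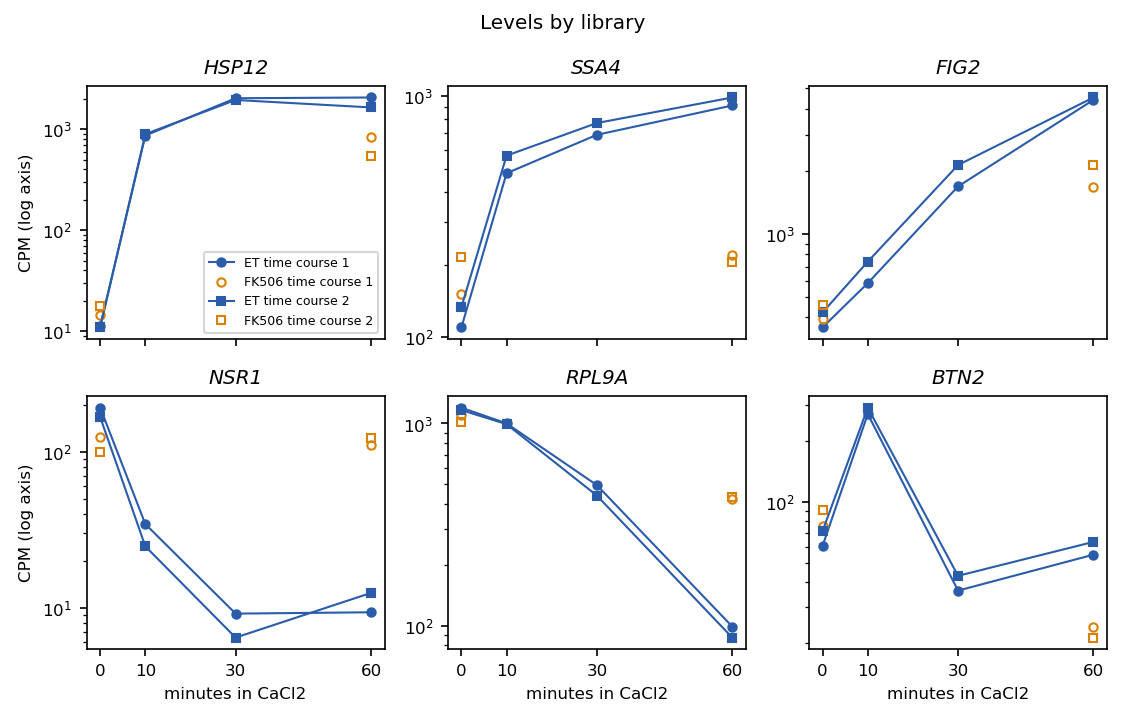
CPM on log axes of 6 genes in each ET library at 0, 10, 30 and 60 minutes (filled symbols joined by lines, 1 line per time course) and in each FK506 library at 0 and 60 minutes (open symbols). *RPL9A* is still falling between 30 and 60 minutes and *FIG2* still rising, whereas *NSR1* and *HSP12* reach their 60 minute range by 30 minutes and *BTN2* peaks at 10 minutes.

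Small nucleolar RNAs, the guides of ribosomal RNA modification, were tested for 73 genes, of which 34 were lower and 0 were higher (median -0.43), but with raw library totals 26 were lower and 11 higher. A division by length was made after the values were seen. Of 37 genes under 150 bases 28 were lower (median -1.43), and 21 were lower and 0 higher with raw library totals. Of 36 longer genes 6 were lower (median -0.13), and with raw library totals 5 were lower and 11 higher. The shorter genes also had few counts, with a median level of 3.68 CPM at 0 minutes against 50.2 CPM. Of the 34 lower genes 8 overlap another gene on the same strand. *SNR54*, which overlaps *IMD4*, had the lowest change and went from 1.59 and 1.89 CPM to 0 and 0.257 CPM, while *IMD4* fell by 3.34 on the log2 scale. Reads of such a pair cannot be told apart with certainty.

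Genes of amino acid and nucleotide synthesis were mostly lower. Of 48 amino acid synthesis genes 35 were lower and 9 were higher (median -0.66). *LEU9*, an alpha-isopropylmalate synthase, fell from 214 and 202 CPM to 18.1 and 19.6 CPM, and *ILV3* (-2.57), *ARO4* (-2.55) and *ILV5* (-2.35) were next. *LYS1*, the last enzyme of lysine synthesis, had the highest change in the group, 1.33. *GCN4*, the TF that activates these genes, fell from 619 and 609 CPM to 381 and 402 CPM. Of 17 purine synthesis genes 12 were lower, led by the GMP synthase gene *GUA1* (768 and 744 CPM, then 80.4 and 87.6 CPM), *IMD4* and *IMD3*, all of which act in guanine nucleotide synthesis. *RKI1*, ribose-5-phosphate isomerase, fell from 83.7 and 72.7 CPM to 7.46 and 5.82 CPM. Sulphate assimilation went the other way, with 18 of 28 genes higher and 5 lower (median 0.52). *MET3*, the ATP sulphurylase, rose from 56.3 and 73.9 CPM to 579 and 547 CPM, and the sulphate permease *SUL2* from 55.2 and 72.6 CPM to 426 and 398 CPM, whereas *SAM1*, which makes S-adenosylmethionine, had a log2 change of -1.06. These cells lack *MET17*, which incorporates sulphide into homocysteine, in all groups.

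Genes of the pheromone response, through which haploid cells prepare for mating, were higher although no pheromone is named among the treatments. Of 35 genes 26 were higher and 4 were lower, with a median of 0.91. *FIG2*, a cell wall adhesin of mating cells, rose from 358 and 422 CPM to 4401 and 4518 CPM, 3.28 on the log2 scale (SE 0.08, limma adjusted p 1.7e-16). *PRM1*, a membrane protein of cell fusion, rose from 112 and 119 CPM to 1006 and 932 CPM. *PRM6* (2.99), *FUS2* (2.65) and *FUS1* (2.14) moved in the same direction. The 2 time points did not overlap for *FIG2* or *PRM1*, as for 85.3% of all genes tested. *ASG7*, a regulator of pheromone signalling in MATa cells, rose by 2.06. Outside this group, the cyclin genes *PCL2* (2.17) and *PCL1* (1.40) were higher, too. Of the 12 G1 and B-type cyclin genes to which they belong, 4 were higher and 7 lower (median -0.39). Not all pheromone response genes rose. *PRM7* fell from 20.8 and 14.9 CPM to 7.29 and 6.16 CPM, and *FAR1*, which arrests the cell cycle in response to pheromone, was lower by -0.33 (limma adjusted p 6.1e-04), a change that did not pass with raw library totals (-0.09). Of the 35 genes 25 were higher at 60 than at 30 minutes and 1 was lower, so this group was still rising at 60 minutes. Together the 35 genes took 0.569% and 0.597% of the counts at 0 minutes, 1.12% and 1.24% at 30 minutes and 1.87% and 1.90% at 60 minutes.

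Cell wall genes were split, with 18 higher and 15 lower of 35. *GSC2*, a glucan synthase subunit induced by wall stress, rose from 131 and 137 CPM to 663 and 805 CPM, and most of this came after 30 minutes, since its log2 difference between 60 and 30 minutes was 1.68 (limma adjusted p 1.8e-11). *UTR2*, a wall transglycosylase and a known target of Crz1, fell from 914 and 917 CPM to 173 and 200.1 CPM. Of 17 genes of calcium transport and CN signalling 10 were higher and 4 lower, and with raw library totals 12 were higher and 0 lower. *PMC1*, the vacuolar calcium pump and a known Crz1 target, rose in these *crz1Δ* cells from 164 and 172 CPM to 360.1 and 363 CPM, 0.87 on the log2 scale (SE 0.06, limma adjusted p 5.6e-10). *RCN2*, a regulator of CN, rose by 1.54 and *CMK2*, a calmodulin-dependent kinase, by 1.10. *RCN1*, at 0.28, did not pass (limma adjusted p 0.099), nor did *ENA1*, a sodium pump whose neighbouring copies make its counts uncertain (-0.08, limma adjusted p 0.65). *PMA1*, the proton pump of the plasma membrane, fell from 11656 and 11360 CPM to 4182 and 5030 CPM.

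Cell cycle genes were examined next. Of 134 SBF/MBF targets, a list that the study drew up, 70 were lower and 33 higher (median -0.28), but with raw library totals 47 were lower and 47 higher. Among them *CLB6*, an S phase cyclin, fell from 27.9 and 29.6 CPM to 9.24 and 8.90 CPM, while *SVS1* rose from 138 and 139 CPM to 964 and 919 CPM. The G1 cyclin genes *CLN1* (0.21) and *CLN2* (0.19) were slightly higher. The *CLN1* call was lost without replicate 2 of 0 minutes (0.16), and the *CLN2* call without either library of 0 minutes (0.19 each) or without replicate 1 of 60 minutes (0.16). Of 38 Fkh2/Ndd1 targets 21 were lower and 4 higher (median -0.32), and 17 and 12 with raw library totals. *FKH2* itself fell from 79.5 and 73.8 CPM to 35.1 and 41.7 CPM, -1.24 on the log2 scale (SE 0.11, limma adjusted p 2.3e-08). *CLB2* (-0.55), *CDC5* (-0.59) and *SWI5* (-0.77) were lower, *HCM1* was higher at 0.32, and *NDD1* (0.12) did not pass (limma adjusted p 0.16). Among 96 Hcm1 targets 47 were lower and 23 higher, a balance that turned to 22 and 38 with raw library totals. Of 10 histone genes 8 were lower (median -1.07), and of 14 genes of the MCM complex and origin licensing 13 were lower and 0 higher (median -0.53), led by *MCM7* at -1.47. The target lists were taken from the study's supplementary gene lists.

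Genes of signalling upstream of growth also changed. Of 18 genes of the Ras and protein kinase A pathway 12 were higher and 4 lower. *BCY1*, the inhibitory subunit of protein kinase A, rose by 0.95. *RAS1*, 1 of the pair of *RAS* genes, fell from 85.0 and 67.5 CPM to 23.3 and 23.1 CPM. *MSN4*, a TF that binds the stress response element, was higher by 0.45 at 60 minutes (limma adjusted p 0.0026), after 1.43 at 10 minutes, and its 60 minute change did not pass without replicate 1 of 0 minutes (0.24). *LSO1*, a gene induced when iron is scarce, rose from 0.418 and 0.428 CPM to 6.95 and 5.48 CPM. Of 30 iron genes 9 were higher and 10 lower, near the shares of all genes, and with raw library totals 16 were higher and 7 lower. *ACT1*, a common reference gene, did not pass (0.05, limma adjusted p 0.34), and was higher with raw library totals (0.28).

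The motifs shown above were counted in the 5745 tested protein-coding genes with a window, on both strands. AGGGG occurred in 23.8% of all windows, in 46.9% of the 571 whose gene was higher by at least 1 and in 16.02% of the 768 whose gene was lower by at least 1. At least 2 copies were present in 4.18%, 16.3% and 1.95%, respectively. The motif was in the windows of 30 of 39 general stress genes, and in those of 10 of the 12 highest genes. PAC (GATGAG) was in 18.1% of all windows, 13.7% of the higher and 34.5% of the lower, and RRPE in 4.18%, 1.05% and 19.0%. PAC was in the windows of 42 of 66 large subunit assembly factors and 26 of 47 small subunit processome genes. Ribosomal protein genes differed from these, since PAC was in 7 of 56 small subunit and 11 of 78 large subunit genes. The pheromone response element (TGAAACA) was in 7.28% of all windows, 9.28% of the higher and 5.47% of the lower, and in 20 of 35 pheromone genes. The heat shock element was in 13 of 28 chaperone genes, CCAAT in 31 of 36 genes of oxidative phosphorylation, the E box (CACGTG) in 15 of 28 sulphate and methionine genes and the Gcn4 core (TGACTC) in 33 of 48 amino acid synthesis genes, against 1.10%, 44.3%, 4.53% and 8.70% of all windows. Among all genes higher and all genes lower by at least 1, CCAAT was in 47.1% and 41.2% of windows and the E box in 6.83% and 3.65%, while the MBF (ACGCGT) site was in 2.63% and 3.39% against 4.02% of all windows and the SBF (CGCGAAA) site in 2.80% and 5.73% against 4.65%. No motif searched contains another, although the MBF and SBF letters share CGCG. A match is a description of these letters and not a measured binding site.

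**Figure D5:**
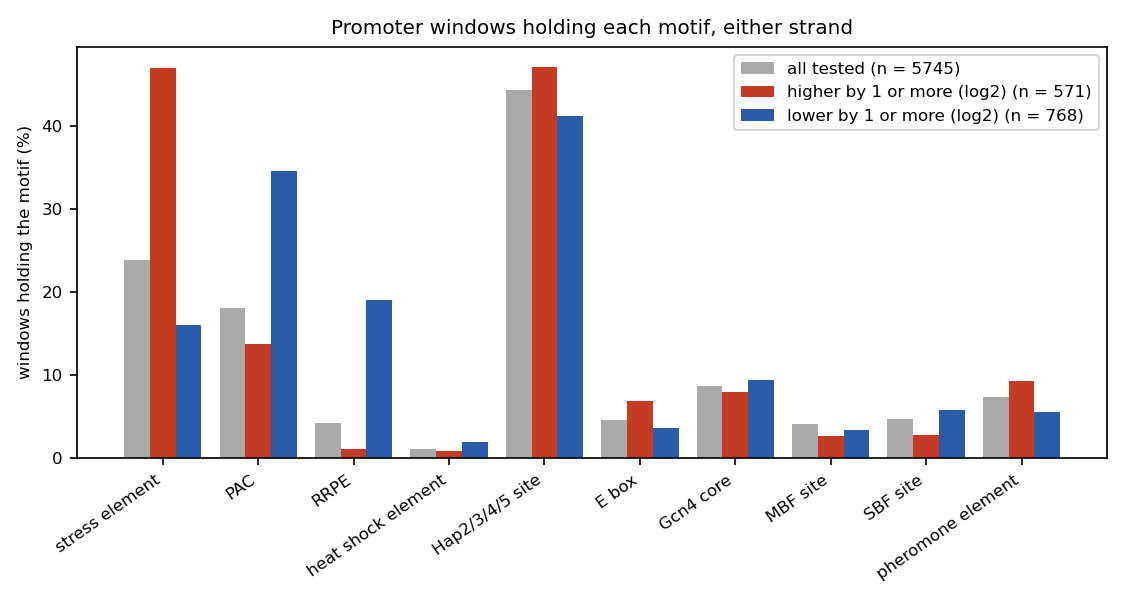
Percentage of promoter windows that hold each of 10 motifs on either strand, for all tested genes (grey, n = 5745), genes higher by at least 1 on the log2 scale (red, n = 571) and genes lower by at least 1 (blue, n = 768). The stress response element stands at 46.9% in the higher set, PAC at 34.5% and RRPE at 19.0% in the lower set.

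Calls were also counted by position, gene structure and starting level. Of 242 genes between 10 and 30 kb from a chromosome end 49.2% were higher and 15.7% lower, against 34.2% and 37.2% of 4353 genes more than 100 kb away. Of 68 genes within 10 kb of an end 35.3% were higher and 5.88% lower. Position was not separated from the level at 0 minutes in these shares. Genes with 2 or more exons were lower in 57.3% of 253 cases, but without ribosomal protein genes in 36.3% of 168, against 34.4% of single-exon genes. Of 145 genes above 1000 CPM at 0 minutes 80.7% were lower and 12.4% higher. Of 704 genes under 10 CPM 6.39% were lower and 43.6% higher, where the level at 0 minutes also enters the change. The filter on counts worked by group, so a gene low at 0 minutes could be tested because another group was higher. Genes with few counts at 0 minutes can also hardly be called lower, so these shares are partly set in advance. The 57 lists, 5 of them the study's, held 1626 of all 6206 genes tested. They held 205 of the 625 genes higher by at least 1 and 445 of the 826 lower by at least 1. Most genes of the higher set thus lie outside the groups described.

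To place the 60 minute state beside cells in which CN was inhibited, the change in ET was compared with that in FK506 in a direct test. The change was higher in ET for 1490 genes (24.0%) and lower for 1734 (27.9%), or 51.9% of all genes in either direction. For ribosomal protein genes the median log2 change in FK506 was -0.85 in the small and -0.83 in the large subunit, and for large subunit assembly factors it was -0.21. All 66 of these assembly factors and all 56 small subunit ribosomal protein genes had a lower change in ET by the test. General stress genes had a median of 0.47 in FK506, and the change of 33 of 39 was higher in ET. The arms also differed before CaCl2, which enters these differences. At 0 minutes, genes of the processome, large subunit assembly and snoRNPs took 1.88% and 1.73% of the counts in ET. In FK506 they took 1.55% and 1.43%. General stress genes took 0.168% and 0.170% in ET and 0.2025% and 0.214% in FK506 at that time. Some group medians had opposite signs. Proteasome genes were at 0.45 in ET and -0.20 in FK506, with all 34 differing by the test, sulphate and methionine genes at 0.52 and -0.39, with 19 of 28 higher in ET, and chaperones at 0.08 and -0.53, with 19 of 28 higher in ET. *HSP42* rose in ET (2.07), and its change was higher there than in FK506 by 3.07 on the log2 scale (limma adjusted p 1.7e-10). Pheromone response genes had a median of 0.91 in ET and 0.29 in FK506. The change of 22 of 35 was higher in ET and that of 2 was lower. *FIG2*, 1 of these genes, had 2.04 in FK506 against 3.28 in ET. By contrast, the 7 tested genes of the mitochondrial genome gave 0 differences by the limma test.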

How the data were processed

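RNA was measured in 16 libraries of 2 arms (ET and FK506), 4 times and 2 time courses, by strand-specific sequencing after removal of ribosomal RNA. The authors aligned 50-base reads with TopHat2 2.1.1 to R64 and deposited raw counts per gene. The study's methods name HTSeq as the counter, whereas the submitters' processing notes name featureCounts (Subread 1.5.3). The table holds 7126 features, 329 with 0 counts in all libraries. Of the feature names 6048 matched a systematic name and 119 a symbol in the RefSeq R64 annotation, from which names, positions and windows were taken.

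Genes that passed filterByExpr (minimum count 10; 6206 genes) were fitted in R 4.3.3 with voom in limma 3.58.1 and TMM factors (0.910 to 1.102) from edgeR 4.0.16. The model held group and replicate number over all 16 libraries, with the correlation within a time course (-0.12) and 7 residual degrees of freedom, and called genes at a Benjamini-Hochberg adjusted p under 0.05. Replicate numbers pair libraries because the sample descriptions in the labels give each time course a letter, and the correlation of deviations between the 0 and 60 minute ET libraries was -0.053. Nothing in the labels says how separately the time courses were grown, so p-values measure the spread between these samples. Replicates differed beyond counting noise (chi-square per degree of freedom 5.39 and 11.35). CPM are scaled to the raw total, whereas log2 changes follow TMM scaling. Genes with over 20% of their 50-base words repeated in the genome (181 of those tested) were called uncertain. The scripts were tested on simulated data.

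Named genes were the 12 highest and 12 lowest called changes that went the same way in both time courses, at 50 or more counts on average, without near-identical copies; up to 4 called members per list and direction, and list extremes; and a fixed set of markers and regulators. Other genes named, and the paralog pairs, were chosen after their values were seen. The members and the 57 lists, 5 of them the study's, were chosen with earlier results of these data known. The alternatives comprised edgeR, DESeq2 1.42.0, other scalings, filters, sample sets and blocks, and leaving out libraries. Results for a few genes and 1 list are not reported here.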

Additional observations from a re-analysis of the deposited data

Results flagged for a closer look

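The change at 60 minutes differed between ET and FK506 by the direct limma test (ET minus FK506) for each of the 24 genes with the highest and lowest changes, and for 1490 genes with a higher and 1734 with a lower change in ET. All 24 kept direction and call in each alternative run.

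Among the 12 highest genes the log2 difference was 1.85 for *HSP12*, 2.25 for *HSP26*, 3.18 for *DDR2*, 2.05 for *NQM1*, 3.53 for *RTC3*, 2.55 for *PGM2*, 2.01 for *GND2*, 3.15 for *FMP16*, 1.46 for *GPG1*, 0.86 for *TDH1*, 2.06 for *AMS1* and 2.60 for *MSC1*. Among the 12 lowest it was -3.38 for *RPS26B*, -3.86 for *URA7*, -4.24 for *NSR1*, -3.57 for *NOP7*, -3.12 for *FPR4*, -3.39 for *NOP13*, -3.11 for *RPS17B*, -3.66 for *BRX1*, -3.59 for *RPA43*, -3.05 for *RPS22A*, -2.47 for *RPL9A* and -3.38 for *NOP58*. These genes were chosen for their change in ET, which is part of the difference.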

How the results depend on the processing

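The counts of genes called stayed within 1.5 times their value under each alternative run, with the lowest and highest for genes higher at 60 minutes being 1817 (without replicate 1 of 0 minutes) and 2973 (raw library totals). With 1 library of 0 or 60 minutes left out, 1817 to 1985 genes were higher and 1863 to 2029 lower. Without the replicate block 2103 were higher and 2167 lower, and the block changed 2 calls among 355 named genes. Of 6019 values for these genes, 5924 kept direction and call, 81 in 37 genes lost the call, 9 in 4 genes gained it, and 5 reversed, all with raw library totals, namely *NDE1* (0.0352), *STE6* (0.0132), *GPR1* (0.0913), *CDC25* (0.0971) and *ALG9* (0.0348).

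Group medians that changed sign with raw library totals, which move all genes upward, were phosphate (0.11), iron (0.23), drug efflux (0.13), endoplasmic reticulum folding (0.0241), ribosome production regulators (0.16), structural noncoding RNAs (0.20), Hcm1 targets (0.0807), Mcm cluster (0.0654) and mitochondrial ribosomal proteins (0.19). Leaving out the 10 genes with the most counts gave 0.0314 for iron and 0.00015 for structural noncoding RNAs. Protein-coding genes alone gave 0.0319 for iron, and no filter 0.0303. The cause was not tested beyond this shift. Leaving out a whole time course leaves 1 library per group and gave values without a test. With 2 libraries per group and 1 strain, small changes and genes with few counts are the least certain.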
